A study of Mus musculus with 16 samples.

Results

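The response of control myotubes to the induction treatment itself was measured in 6 of the 16 libraries of the study. These were 3 libraries of induced and 3 of uninduced isolated myotubes of the line whose inducible transgene was GFP only, matched by replicate number. All 19799 genes with a symbol, of 19866 entries in the count table, were taken in, and 16245 of them held enough reads to be tested. The cells were pmi28, a line of mouse myoblasts that fuse into multinucleated myotubes. In both groups confluent myoblasts were differentiated in horse serum for 3 days, freed of mononucleated cells on a filter mesh, and recultured for 3 days with AraC, a nucleoside analogue that kills dividing cells, which was washed out before treatment. The induced group then received doxycycline at 2 µg/ml for 24 h in growth medium, which holds fetal bovine serum. The sources used here do not state which medium the uninduced myotubes had during those hours, nor whether the line was 1 clone. Doxycycline, the change of serum and medium, and GFP therefore cannot be told apart in this comparison. A second line, with inducible msx2 and GFP, was handled in the same way and had 3 induced and 3 uninduced myotube libraries of its own, and each line had 2 libraries of uninduced myoblasts.

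Doxycycline switches on transgenes through an engineered tetracycline-responsive activator. The drug is also an antibiotic that acts on bacterial ribosomes and, in mammalian cells, can slow translation in mitochondria, which are of bacterial descent. Fetal bovine serum carries growth factors, lipids and transferrin, which in many cells call up immediate early genes, actin and serum response factor targets, and lipid metabolism genes. Myotubes are post-mitotic, so growth medium is not generally enough to return them to the cell cycle. The control cells show which genes of these responses, if any, differed in RNA between induced and uninduced myotubes at 24 h. A response that had passed by then would not be seen, nor one to serum if uninduced myotubes had the same medium.

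Library totals in the 6 libraries ran from 19784873 to 33092666 reads. The GFP transgene itself was not analysed here, so the labels of induction could not be checked against it, and Msx2 differed by a log2 of -0.10 ± 0.20 (SE) between induced and uninduced libraries. The myotube markers of the list (Myog, Tmem8c, Ckm, Myh3, Acta1, Des and Cdh15) summed to 21820 to 23730 CPM (read counts scaled to a common library size) in uninduced and 21140 to 23200 CPM in induced myotubes, against 872.6 to 879.6 CPM in GFP-line myoblasts. The myoblast markers of the list (Myf5, Pax7, Myod1 and Mki67) summed to 271.4 to 299.6 CPM uninduced and 284.6 to 318.7 CPM induced. In GFP-line myoblasts they summed to 713.6 to 765.3 CPM. Mki67, a proliferation marker, lay between 6.09 and 14.8 CPM in all 6 libraries, against at least 400.5 CPM in myoblasts. Myf5 and Pax7 were lower than in myoblasts too. Myod1 was higher, at 252 to 270.2 CPM uninduced and 266.2 to 293 CPM induced, against 177.4 to 183.1 CPM in myoblasts. By the myotube markers, and by the myoblast markers other than Myod1, the labelled cell type held in both groups. Of the markers of other cell types, the 3 of adipocytes (Adipoq, Plin1, Cidec) summed to under 1 CPM in every library, the 3 of endothelium (Pecam1, Cdh5, Kdr) to 6.27 to 7.38 CPM uninduced and 7.27 to 8.58 CPM induced, and the 3 of leukocytes (Ptprc, Cd68, Itgam) to 22.8 to 25.7 CPM uninduced and 22.1 to 25.6 CPM induced, nearly all of it Itgam. The 3 of smooth muscle (Myh11, Cnn1, Myocd) summed to 14.1 to 17.9 CPM uninduced and 13.2 to 16.3 CPM induced. The 5 fibroblast markers summed to 19.4 to 23.4 CPM in uninduced and 17.4 to 27.6 CPM in induced libraries. In these, Pdgfra held most of the reads and Dpt, Thy1 and Tcf21 stayed under 1 CPM, with no read of Tcf21 in uninduced libraries. For each of these cell types the sums of induced and uninduced libraries overlapped.

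Over all 16 libraries, very few genes passed the test for induction in control myotubes. A fit of the 6 GFP-line myotube libraries alone, with the replicate number as a block, is given below. Chosen after the data were seen, it passed 114 of 15456 genes (0.738%), 53 of them lower. With 1 coefficient per group and all 16 libraries in the edgeR fit, 5 of 16245 genes passed an adjusted p of 0.05 (0.0308% of genes tested), and all 5 were higher in induced myotubes: Serpinb9g, Serpinb9f, Gpr56, AI480653 and Zfp518b. No gene fell by that test, while 98 genes were higher and 66 lower at an unadjusted p under 0.05, and DESeq2 also called no fall. With the replicate number as a block, 17 genes passed (0.105%), again all higher, and the 5 genes were among them. The 12 added genes were Fam43a, Serpinb9d, Serpinb9e, Slc29a3, Aspm, Fndc1, Gstm5, Sctr, Foxo1, Scn3a, St3gal1 and Tmem37. In all 17 genes the induced library was higher than the uninduced one in each of the 3 pairs, and in 13 of them the 2 groups did not overlap. By comparison, all 3 induced libraries lay above all 3 uninduced ones in 424 genes (2.61%), and below them in 426 (2.62%).

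The largest rises were in the Serpinb9 cluster, a row of related genes for intracellular serine protease inhibitors whose best known member, Serpinb9, inhibits granzyme B. In RefSeq's order along mouse chromosome 13 the protein-coding genes of the cluster run Serpinb9, Serpinb9b, Serpinb9c, Serpinb9d, Serpinb9e, Serpinb9f and Serpinb9g, with other genes between some of them, and the last 4 were those that rose. Their promoters are shown because these 4 genes moved together. The lines below give the 250 bases before each annotated start (RefSeq, build GRCm38.p6, + strand), in the order Serpinb9g (chr13:33484540-33484789), Serpinb9f (chr13:33323827-33324076), Serpinb9e (chr13:33249358-33249607) and Serpinb9d (chr13:33192705-33192954), with capitals at bases that differ from, or have no partner in, Serpinb9g within the aligned stretch.
Serpinb9g: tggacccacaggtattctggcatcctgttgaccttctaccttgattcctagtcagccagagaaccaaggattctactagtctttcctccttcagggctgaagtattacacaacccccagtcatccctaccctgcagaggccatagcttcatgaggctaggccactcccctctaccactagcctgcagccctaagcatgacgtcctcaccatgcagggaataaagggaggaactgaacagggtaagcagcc
Serpinb9f: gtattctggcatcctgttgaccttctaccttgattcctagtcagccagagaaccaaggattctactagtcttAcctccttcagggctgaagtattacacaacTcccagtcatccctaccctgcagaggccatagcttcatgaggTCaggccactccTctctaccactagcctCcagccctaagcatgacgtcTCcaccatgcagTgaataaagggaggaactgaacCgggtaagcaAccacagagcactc
Serpinb9e: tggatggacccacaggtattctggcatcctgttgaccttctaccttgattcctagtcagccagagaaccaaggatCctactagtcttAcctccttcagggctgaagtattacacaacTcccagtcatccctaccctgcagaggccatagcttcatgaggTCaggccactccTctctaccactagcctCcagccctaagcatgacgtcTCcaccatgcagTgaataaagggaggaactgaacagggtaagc
Serpinb9d: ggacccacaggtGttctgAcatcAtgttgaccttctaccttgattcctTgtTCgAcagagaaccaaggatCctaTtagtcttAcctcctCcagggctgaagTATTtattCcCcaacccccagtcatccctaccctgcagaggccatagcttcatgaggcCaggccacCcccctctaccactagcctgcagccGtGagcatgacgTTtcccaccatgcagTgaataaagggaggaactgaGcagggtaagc
Over the aligned bases, identity to the Serpinb9g promoter was 95.4% for Serpinb9f (239 bases aligned), 95.9% for Serpinb9e (246 bases) and 92.2% for Serpinb9d (244 bases). Serpinb9c, the next gene in the row, had 73.6% over 208 bases, and Serpinb9, the first gene, 73.3% over 105 bases.

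Serpinb9g stood at 4.86, 3.73 and 6.44 CPM in uninduced replicates 1, 2 and 3 and at 24.9, 25.8 and 22.8 CPM in induced replicates 1, 2 and 3. Every induced library was well above every uninduced one, a 4.84-fold rise (log2 2.28 ± 0.18 SE, adjusted p 3.3e-05). Serpinb9f stood at 1.42, 2.32 and 3.06 CPM uninduced and at 9.92, 10.0 and 9.82 CPM induced. Its groups did not overlap either, and the rise was 4.23-fold (log2 2.08 ± 0.23, adjusted p 0.0012). Serpinb9d, at 3.24, 2.84 and 3.88 CPM uninduced and 6.14, 5.80 and 6.27 CPM induced, rose by a log2 of 0.87 ± 0.14 with the block (adjusted p 0.031). Serpinb9e, at 2.68, 2.69 and 3.88 CPM uninduced and 5.43, 5.04 and 6.32 CPM induced, rose by 0.86 ± 0.13 (adjusted p 0.031). The groups did not overlap in either gene, but without the block their adjusted p was 0.24 and 0.74.

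The other 3 genes of the row did not pass the test. Serpinb9 averaged 18.6 ± 2.43 CPM uninduced and 18.6 ± 2.30 CPM induced (SD, n = 3 each; log2 0.00 ± 0.11), Serpinb9b 33.9 ± 5.22 and 33.9 ± 0.92 CPM (0.00 ± 0.15), and Serpinb9c 4.17 ± 1.12 and 4.83 ± 0.78 CPM (0.21 ± 0.24). Of all 17 tested Serpinb genes, 2 rose without and 4 with the block, and none fell; the median log2 change of the 17 was 0.00215. Serpinb1a, at 361 CPM, and Serpinb6a, at 421 CPM, the most abundant members, had -0.19 ± 0.21 and -0.03 ± 0.10.

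How far the counts of the 4 risers are separate measurements depends on how reads shared between copies were counted, which the sources used here do not give. In GENCODE's longest transcripts (release M21), 52.8% of the 50-base windows of Serpinb9f and 44.5% of those of Serpinb9g also occurred in another member of the row, 37.8% and 37.5% in each other. The shares were 28.4% for Serpinb9e and 30.8% for Serpinb9d, and at most 0.4% for Serpinb9, Serpinb9b and Serpinb9c. Each riser thus had at least 47.2% of its windows in no other member of the row. Genes outside the row, or lying between its members, were not compared. The part that reads of one copy had in the count of another was not tested.

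The other 3 genes past the threshold without the block have unrelated products. Gpr56, named Adgrg1 in RefSeq, encodes an adhesion G protein-coupled receptor that binds matrix collagen and has been linked to myoblast fusion and muscle growth. It stood at 16.5, 14.2 and 20.0 CPM uninduced and at 67.5, 64.4 and 43.5 CPM induced. The groups were far apart, with induced replicate 3 the lowest of its group, and the rise was 3.45-fold (log2 1.78 ± 0.17, adjusted p 0.00065). None of the other 28 adhesion receptor genes in the table passed, with or without the block, and the median log2 change of the family was -0.0272.

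AI480653, named Xxylt1 in RefSeq, encodes a xylosyltransferase that extends sugar chains on Notch and similar proteins. It stood at 14.8, 16.2 and 16.5 CPM uninduced and at 55.8, 59.4 and 29.3 CPM induced. Induced replicate 3 was again the lowest of its group, and the groups did not overlap (3.04-fold, log2 1.60 ± 0.19, adjusted p 0.0062). Zfp518b, which encodes a zinc finger protein, stood at 10.3, 11.1 and 12.0 CPM uninduced and at 19.6, 18.7 and 17.3 CPM induced. Its libraries were tight within each group, and the rise was 1.66-fold (log2 0.73 ± 0.10, adjusted p 0.0088). In the block fit, adjusted p was 0.043 for Gpr56, 0.035 for AI480653 and 0.014 for Zfp518b. Zfp518b and AI480653 no longer passed without uninduced replicate 1 or 2, and Zfp518b also not without induced replicate 1 or 2.

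**Figure D1:**
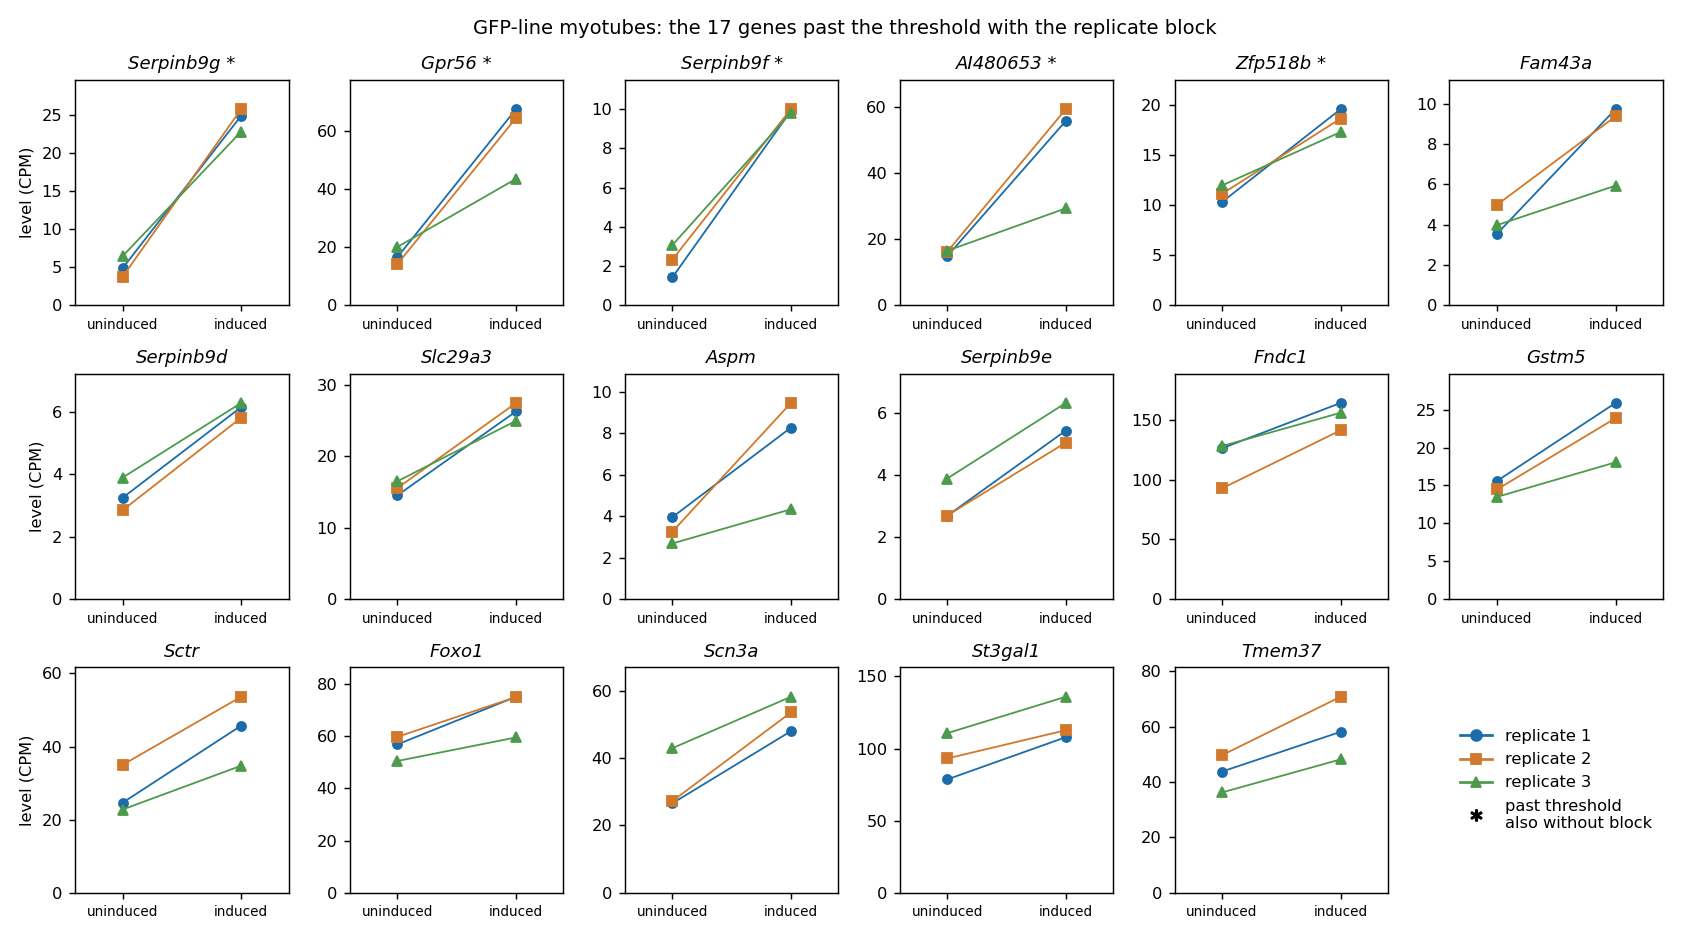
Level in CPM (y axis, from 0, own scale per gene) of the 17 genes past the threshold with the replicate block, in uninduced and induced GFP-line myotubes, with a line for each replicate number. All lines rise, the 5 starred genes also passed without the block, and replicate 3 (green triangles) has the shallowest slope on the log2 scale in 15 of the 17.

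The 12 genes added by the block rose less than Serpinb9g, Serpinb9f, Gpr56 and AI480653. Aspm, a spindle pole protein gene of dividing cells, stood at 3.95, 3.25 and 2.68 CPM uninduced and 8.27, 9.46 and 4.33 CPM induced, a rise of log2 1.13 ± 0.18 (adjusted p 0.035). None of the 30 listed G2/M genes passed with it. Fam43a stood at 3.54, 4.98 and 3.97 CPM uninduced and 9.73, 9.37 and 5.93 CPM induced (0.97 ± 0.15, adjusted p 0.031). The groups did not overlap in either gene.

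Scn3a, a neuronal type sodium channel gene, stood at 26.6, 27.2 and 42.9 CPM uninduced and at 48.0, 53.6 and 58.2 CPM induced. Its replicate 3 was the highest in both groups, and the rise with the block was 0.75 ± 0.09 (adjusted p 0.0039), against an adjusted p of 1 without it. Slc29a3, a lysosomal nucleoside transporter gene, went from 14.5, 15.5 and 16.5 CPM to 26.3, 27.4 and 24.9 CPM (0.75 ± 0.12, adjusted p 0.038), with no overlap. Sctr, the secretin receptor gene, went from 24.6, 35.0 and 22.8 CPM to 45.7, 53.6 and 34.8 CPM (0.70 ± 0.11, adjusted p 0.031), with induced replicate 3 just under uninduced replicate 2.

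Gstm5, which encodes a glutathione transferase, went from 15.6, 14.5 and 13.5 CPM to 25.9, 23.9 and 18.0 CPM, with no overlap (0.63 ± 0.10, adjusted p 0.038). It was the only 1 of 16 tested glutathione transferase genes to pass with the block, and none passed without it. Tmem37 had 0.44 ± 0.08, Fndc1 0.42 ± 0.06, St3gal1, a sialyltransferase gene, 0.34 ± 0.06 and Foxo1 0.32 ± 0.05 with the block, and their adjusted p lay between 0.031 and 0.043. Foxo1 encodes a transcription factor that drives atrophy genes in muscle when insulin signalling is low. It stood at 56.8, 59.7 and 50.5 CPM uninduced and at 75.1, 74.9 and 59.5 CPM induced, where induced replicate 3 overlapped the uninduced range. Of the other 20 tested genes of the atrophy and FoxO list none passed with the block.

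Several of the 17 genes were neighbours. By RefSeq's gene order, 8 of them had another as the nearest tested protein-coding gene on at least 1 side: the 4 Serpinb9 genes on chromosome 13, Fam43a and AI480653 on chromosome 16, and Sctr and Tmem37 on chromosome 1. The remaining 24 neighbours had a median log2 change of 0.00506 (from -0.58 to 0.72), 14 of them above 0. Genes past the threshold had been taken out of these 24 beforehand, so none of them could pass. Next to AI480653, Acap2 had 0.00 ± 0.06, and next to Fam43a, Lsg1 had 0.05 ± 0.07. Past Serpinb9g, Serpinb6c had -0.08 ± 0.27.

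Promoter windows from RefSeq (250 bases before the start, GRCm38.p6) were at hand for 14 of the 17 genes, 15 windows in all. TGANTCA, with any base at N, takes in the site bound by AP-1 factors but is wider than it. Matches to it on either strand stood in 3 of the 15 (Gpr56, Gstm5 and Tmem37), against 6.75% of all 32851 windows. TGACGTCA, the cyclic AMP response element, stood in none (1.55% of all windows), nor did the CArG box bound by serum response factor (1.47%). CCAAT stood in 4 (33.85% of all windows) and TATAAA in 1 (12.37%). These counts describe the letters in these windows only.

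Among the genes past the threshold, the rise relative to the uninduced library was mostly smallest in pair 3. The log2 ratio of induced to uninduced was lowest in pair 3 for all 5 genes and for 15 of the 17, while pair 3 was lowest for 33.6% of all genes tested and for 39.5% of the 2253 genes higher in all 3 pairs. Median log2 ratios of the 17 genes were 0.91, 0.89 and 0.60 in pairs 1, 2 and 3. For Gpr56 they were 2.02, 2.18 and 1.11, and for AI480653 1.91, 1.87 and 0.83. For Serpinb9g and Serpinb9f, uninduced replicate 3 was the highest of its group, at 6.44 and 3.06 CPM. Their induced libraries lay close together, at 22.8 to 25.8 CPM and 9.82 to 10.0 CPM. In the msx2 line pair 3 was lowest for 11 of the 17 genes, with medians of 1.19, 1.16 and 1.14. Pair 3 was lowest there for 4 of the 5 genes, with medians of 1.74, 1.89 and 1.4, and for 5386 of all 16245 genes. With the block and pair 3 left out, 8 genes passed, and with pair 1 or pair 2 left out, 2 did.

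Across the study's 6 groups, the genes differed in where the induced level lay. Serpinb9g and Serpinb9f were nearly silent in myoblasts, with 3 and 4 reads and 0 and 4 reads in the GFP-line libraries, so induced myotubes held the highest GFP-line level. Gpr56, AI480653, Zfp518b, Aspm and Slc29a3 were higher in GFP-line myoblasts than in uninduced myotubes, at means of 75.5, 31.9, 36.6, 62.8 and 32.1 CPM. For AI480653 the mean of induced myotubes exceeded the myoblast level, and for Gpr56, Zfp518b, Aspm and Slc29a3 it stayed below it. For the other 12 genes the myoblast level was equal to or below that of uninduced myotubes.

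**Figure D2:**
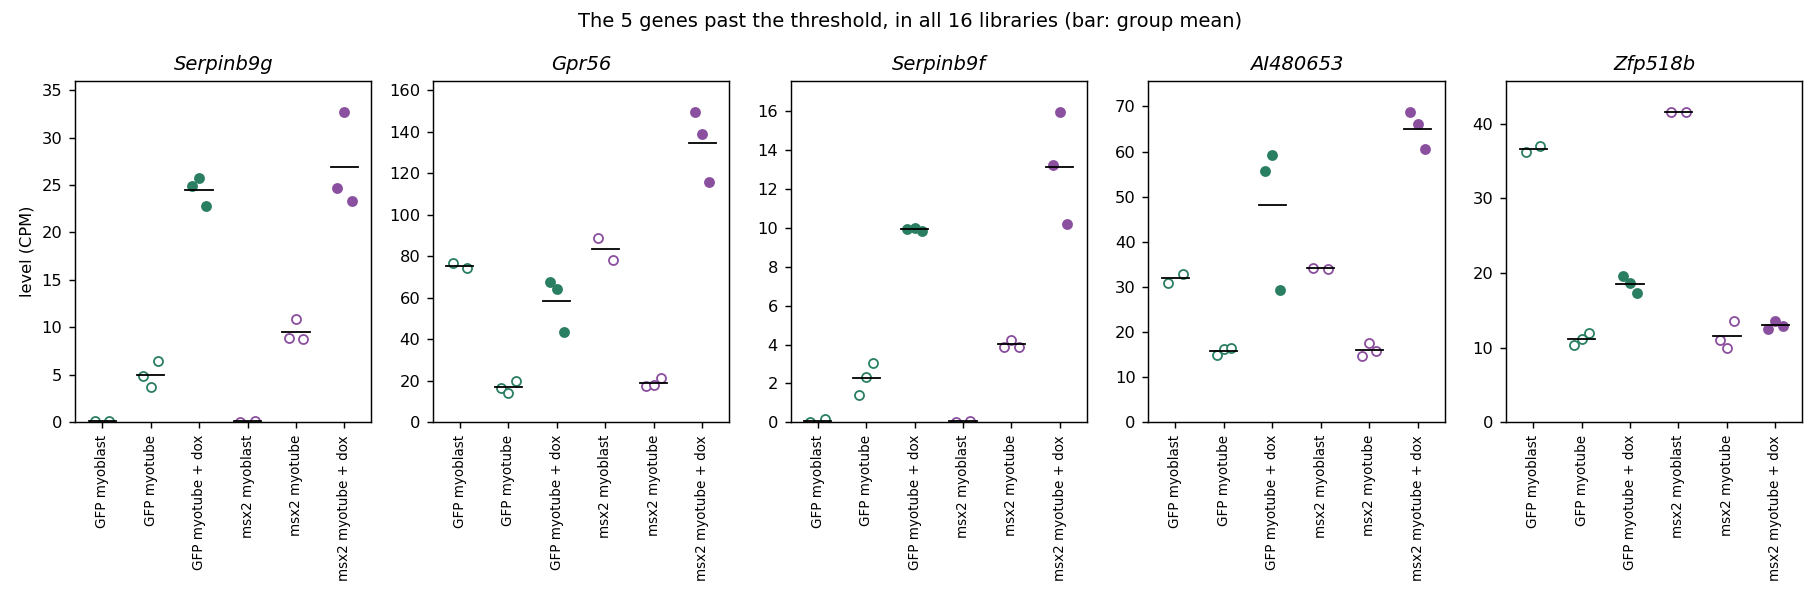
Level in CPM (y axis, from 0) of the 5 genes past the threshold in all 16 libraries, by line and stage, with filled points for induced libraries and a bar at each group mean. The Serpinb9 genes are near 0 in myoblasts of both lines, Gpr56 is highest in induced msx2-line myotubes (mean 135 CPM), and Zfp518b is highest in myoblasts (means 41.5 and 36.6 CPM).

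The msx2 line received the same doxycycline and medium, and its induction changed 5287 genes (32.5% of genes tested), of which 2635 rose (16.2%) and the rest fell (16.3%). The 2 comparisons share no libraries, but their replicate numbers are tied. Across the lines, deviations of same-numbered myotubes from their group means correlated at 0.283, 0.445 and 0.433. Other numbers gave -0.303 to 0.022, and taking deviations from group means itself tends to make these negative once same-number values are positive. Of the 5 genes, 4 rose there as well: Gpr56 by a log2 of 2.83 ± 0.17, AI480653 by 2.02 ± 0.19, Serpinb9f by 1.71 ± 0.22 and Serpinb9g by 1.50 ± 0.17. Zfp518b had 0.17 ± 0.10 (adjusted p 0.22). With the block, 11 of the 17 genes rose in the msx2 line (64.7% of the 17, and 0.174% of the 6336 genes called there) and 3 fell, where 39% of all genes passed and 19.4% rose. Without the block those 3 fell by 1.20 (Fndc1), 1.14 (Scn3a) and 0.35 (St3gal1) on the log2 scale.

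The difference between the lines was tested directly, and it passed for 2914 genes (17.9%). Among them were 3 of the 5. Serpinb9g rose more in the GFP line, by 0.78 (adjusted p 0.036), and Zfp518b by 0.56 (adjusted p 0.012), while Gpr56 rose less, by a difference of -1.04 (adjusted p 0.0065). Serpinb9f (0.37, adjusted p 0.50) and AI480653 (-0.42, adjusted p 0.35) did not pass that test. Of all 17 genes 7 differed without the block and 13 with it, when 4003 genes passed (24.6%). The 6 added differences, GFP line minus msx2 line with the block, were -0.75 for Tmem37 (adjusted p 0.00011), -0.68 for Slc29a3 (0.0080), -0.54 for Gstm5 (0.012), -0.52 for Serpinb9e (0.049), 0.88 for Aspm (0.028) and 0.25 for Foxo1 (0.032). In uninduced myotubes Serpinb9g already stood at 9.53 CPM in the msx2 line against 5.01 CPM in the GFP line, and induced levels were 26.9 and 24.5 CPM. Of the 2914 genes, 2899 also passed in the msx2 line and 3 in the GFP line, and the median size of their change was a log2 of 0.727 in the msx2 line and 0.049 in the GFP line. Among those with the largest differences, Fst had -0.15 ± 0.21, Slc2a6 0.17 ± 0.25, Pln 0.13 ± 0.20, Sln 0.18 ± 0.55, Ripply1 -0.03 ± 0.26, Muc5b 0.33 ± 0.74, Mybpc3 -0.06 ± 0.51 and Psca 0.70 ± 0.77 in the GFP line, none past the threshold.

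**Figure D3:**
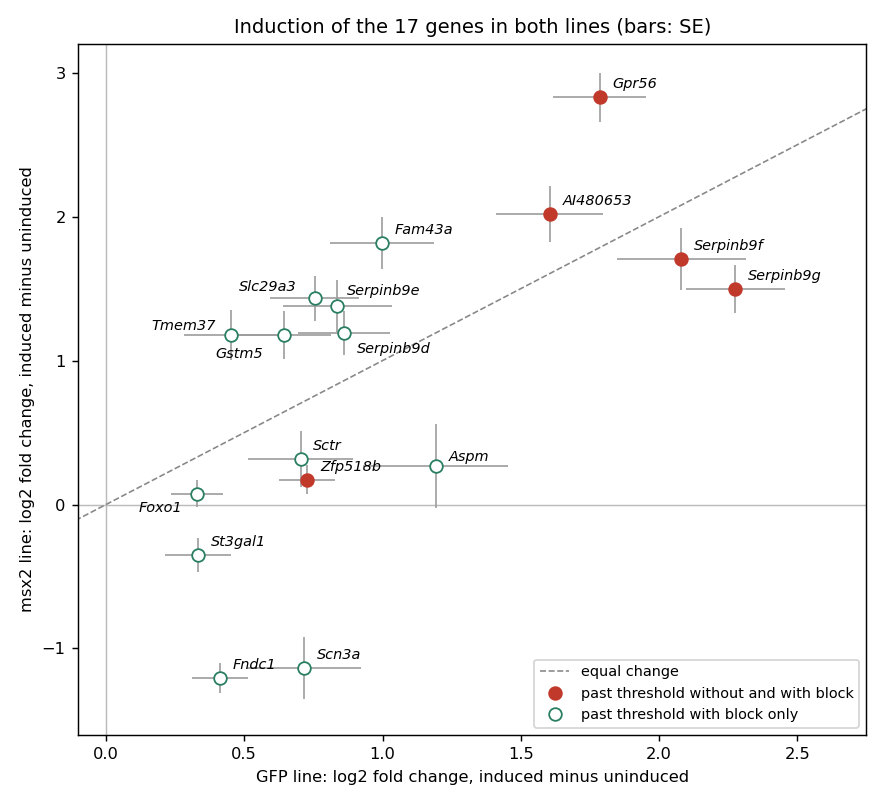
Log2 fold change on induction, with SE, of the 17 genes in the GFP line (x axis) and the msx2 line (y axis), without the block; the dashed line marks equal change. Gpr56 and AI480653 lie above the line, Serpinb9g and Serpinb9f below it, and Fndc1, Scn3a and St3gal1 are below 0 in the msx2 line.

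The replicate number carried more of the variation among the 6 libraries than induction did. In 14215 genes at 1 CPM or more, replicate number took 70% of the sum of squares of log2 CPM for 2 of 5 degrees of freedom, induction 12% for 1, and the residual 17.9% for 2. A test of the replicate number, added after the data were seen, passed for 5547 genes (34.1%). Car3, a carbonic anhydrase gene of muscle, stood at 505, 186 and 597 CPM in uninduced replicates 1, 2 and 3 and at 505, 179 and 597 CPM in induced ones. Myh1, an adult fast myosin, was likewise lowest in replicate 2, at 4339, 2528 and 3682 CPM and at 4327, 2359 and 3786 CPM. Of the gene lists, the test passed for 12 of 13 neuromuscular junction genes, 42 of 48 sarcomere genes and 24 of 30 G2/M genes, so these lists varied between replicate numbers whether or not the cells were induced. What a replicate number stands for (a day, a culture, a batch of medium) is not given in the sources used here.

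**Figure D4:**
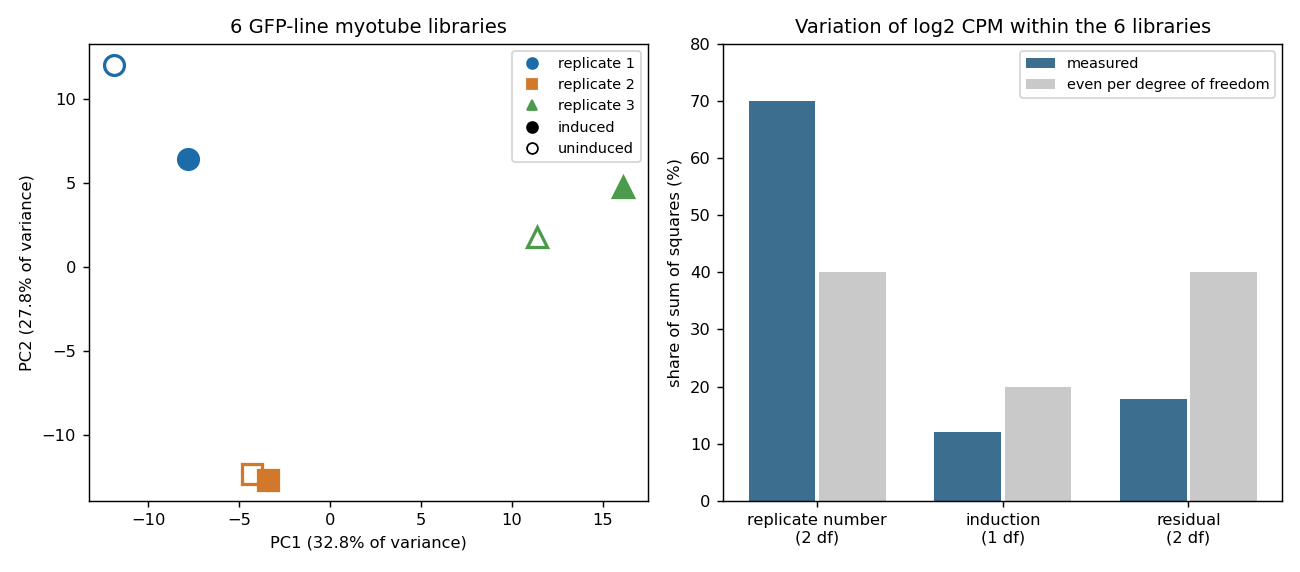
Left, the 6 GFP-line myotube libraries on the first 2 principal components of the 1000 most variable genes (32.8% and 27.8% of variance), where libraries with the same replicate number lie together. Right, the share of the sum of squares taken by replicate number, induction and residual (blue) beside an even share per degree of freedom (grey): 70%, 12% and 17.9% against 40%, 20% and 40%.

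Because of this, the block was also fitted to the 6 GFP-line myotube libraries alone, an alternative chosen after the data were seen. The spread then comes from these libraries and has 2 residual degrees of freedom per gene. Like the others, this fit draws each gene's spread toward that of all genes, so its p-values do not rest on those 2 alone. It passed 114 of 15456 genes (0.738%), 61 higher and 53 lower, with a median absolute log2 change of 0.192 and 6 genes at 2-fold or more. They included 14 of the 17 genes and 3 of the 5, as Gpr56 (adjusted p 0.47) and AI480653 (0.52) did not pass. Without the block the same 6 libraries gave 3 genes, Serpinb9g, Serpinb9f and Slc29a3. The genes named next come from this fit and were chosen after their values were seen.

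The largest added rise was Angptl4, a secreted lipoprotein lipase inhibitor and a target of PPAR factors, at 3.34, 4.35 and 2.18 CPM uninduced and 11.4, 19.8 and 7.25 CPM induced. The groups did not overlap, with a log2 change of 1.96 ± 0.11 (adjusted p 1.1e-17), while over all 16 libraries its adjusted p was 1 without and 0.078 with the block. Src, a tyrosine kinase gene, went from 23.4, 24.2 and 27.1 CPM to 37.0, 40.8 and 38.5 CPM (0.64 ± 0.05). Col5a1, a fibrillar collagen chain, went from 291, 269 and 327 CPM to 404, 385 and 391 CPM (0.41 ± 0.04), and its partner chain Col5a2 had 0.28. The groups did not overlap in Src, Col5a1 or Col5a2.

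Among the falls, Gsta1, another glutathione transferase, went from 25.2, 27.8 and 20.7 CPM to 17.3, 18.4 and 10.8 CPM, with no overlap (-0.67 ± 0.06). Myf6, a myogenic transcription factor, went from 26.3, 13.2 and 15.1 CPM to 16.5, 9.04 and 11.8 CPM (-0.54 ± 0.07), where replicate 1 was highest in both groups and the groups overlapped. Tfrc, the transferrin receptor through which cells take up iron, went from 1354, 993 and 823 CPM to 1062, 793 and 717 CPM (-0.29 ± 0.03), also with overlap. Smaller falls, all with overlapping groups, were those of Ckm (-0.15), Fst (-0.15), Mef2c (-0.13), Cox6a2 (-0.13), Mb (-0.11) and Tnni2 (-0.11). Cdh15, a muscle cadherin, rose by 0.11, also with overlap. The largest fall was that of the predicted gene Gm20594, from 29.1, 16.4 and 26.7 CPM to 15.8, 7.86 and 12.4 CPM (-1.01 ± 0.07), with no overlap. None of the genes named from Angptl4 on passed in edgeR over all 16 libraries, with the block or without it, except Src, which passed with the block and a GC correction. Src also passed in DESeq2. Of the 61 genes higher in this fit, 21 rose and 18 fell in the msx2 line, and of the 53 lower ones 28 fell and 4 rose, beside 16.2% and 16.3% of all genes that rose and fell there.

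Gene lists for the pathways that the treatment could touch were then read over all 16 libraries. Of 1139 listed genes tested, none passed without the block and 1, Foxo1, passed with it, while 6 had an unadjusted p under 0.05 and DESeq2 called none. With the block on the 6 GFP-line myotube libraries alone, 26 listed genes passed, beside 114 of all 15456 genes in that fit (0.738%). Over all 16 libraries, 1063 of the 1139 listed genes (93.3%) had a 95% interval within a 2-fold change either way. The same held for 91% of all 16245 genes. The median log2 change was -0.0153 over the listed genes and -0.00141 over all genes, of which 8002 were above 0. In RNA from whole cultures, fewer cells of a type and less RNA per cell cannot be told apart.

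No gene of the serum and growth factor lists passed over all 16 libraries at 24 h. Of 30 immediate early genes, 12 were above 0, and the median was -0.0162. Jun stood at 144 ± 23.5 CPM uninduced and 142 ± 26.2 CPM induced (log2 -0.01 ± 0.15), Egr3 had 0.00 ± 0.18, and the extremes were Fos at -0.18 and Egr1 at 0.17. The 14 feedback genes of ERK signalling had a median of -0.00128, with Phlda1 at -0.12 ± 0.12 and Errfi1 at -0.04 ± 0.17. Of 21 genes of the actin cytoskeleton and serum response factor, 4 were above 0 and the median was -0.0443, and in the 6-library fit Acta2, Actg2 and Fhl1 passed as falls. Acta2 stood at 999 ± 152 CPM uninduced and 922 ± 164 CPM induced, and Fhl1 at 856 ± 198 and 778 ± 222 CPM. YAP targets (16 genes, median 0.0267) included Ankrd1 at -0.01 ± 0.12 and Amotl1 at -0.05 ± 0.05. The 32 TGF-beta and BMP response genes had a median of -0.0356, with Ltbp1 at -0.03 ± 0.08 and Fst, a fall in the 6-library fit, at -0.15 ± 0.21. The 29 Wnt and Notch genes had -0.0398, with Hes6 at -0.05 ± 0.08 and Fzd7, a Wnt receptor, at -0.04 ± 0.07. In the IGF and insulin list (19 genes, median -0.0347), Igf2, a growth factor of myotubes, stood at 2456 ± 366 CPM uninduced and differed by -0.02 ± 0.13. Igfbp5, which binds IGFs, had -0.21 ± 0.26.

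Mitochondrial genes were read because doxycycline can slow mitochondrial translation. Of 46 nuclear genes of the respiratory chain, 5 were above 0 and the median was -0.0359, a small shift that in pairs 1, 2 and 3 left 10, 7 and 21 genes above 0. Atp5b, an ATP synthase subunit, had -0.03 ± 0.06 and Atp5a1 -0.01 ± 0.06. The 72 genes of the mitochondrial ribosome had a median of -0.0210 (23 above 0), with Mrpl37 at 0.02 ± 0.05 and Mrps28 at -0.04 ± 0.08. For mitochondrial translation and nucleoid factors the median was -0.00947 (19 genes) and for mitochondrial chaperones and proteases 0.00458 (15 genes), where Lrpprc and Tufm, of the former, had 0.00 ± 0.06 and -0.04 ± 0.07, and Hspa9 and Yme1l1, of the latter, -0.02 ± 0.06 and 0.01 ± 0.07. The 32 genes of the integrated stress response, which is raised when mitochondrial translation fails, had a median of 0.0210 with 21 above 0, and Slc7a5 and Slc7a11, amino acid transporters of that response, had 0.02 ± 0.11 and -0.07 ± 0.11. The 20 aminoacyl-tRNA synthetase genes had a median of 0.0127, with Eprs at -0.01 ± 0.07 and Nars at 0.00 ± 0.05. Every gene of these 6 lists had its 95% interval inside a 2-fold change.

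No gene of the other stress lists passed over all 16 libraries. The endoplasmic reticulum chaperones had a median of -0.00693 (21 genes), with Hspa5 at -0.04 ± 0.10 and Canx at 0.02 ± 0.06. Heat shock protein genes had -0.0261 (18 genes), with Hsp90ab1 at -0.01 ± 0.06 and Hspa8 at -0.03 ± 0.05, and oxidative stress genes -0.0357 (15 genes, 4 above 0), with Prdx1 at 0.06 ± 0.07 and Gclm at -0.03 ± 0.08. Of 19 genes of metallothioneins, zinc and iron, 2 were above 0 and the median was -0.0373, with Fth1, the ferritin heavy chain, at -0.11 ± 0.08 and Tfrc at -0.30 ± 0.19. Both passed as falls in the 6-library fit, as did Srxn1 of the oxidative stress list (-0.18), Hspb7 of the heat shock list (-0.13) and Ptgs2 of the inflammation list (-0.13). The 23 p53 targets had -0.0213, with Cdkn1a, a cell cycle inhibitor, at 1554 CPM uninduced and 0.08 ± 0.06, and Ccng1 at -0.02 ± 0.14. Interferon response genes had -0.0693 (29 genes, 10 above 0) with Ifit2 at -0.01 ± 0.11 and Ddx58 at 0.00 ± 0.12, and inflammation genes -0.0432 (22 genes) with Ptgs2 at -0.14 ± 0.14 and Csf1 at -0.09 ± 0.37.

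No gene of lipid and sugar metabolism passed over all 16 libraries. The 23 genes of cholesterol synthesis and uptake had a median of -0.0344, with Srebf2, the factor that controls them, at -0.02 ± 0.07 and Nsdhl at 0.03 ± 0.05. Cholesterol export and LXR targets had 0.0252 (10 genes), with Npc2 at 0.01 ± 0.13 and Lpcat3 at 0.16 ± 0.07, and fatty acid synthesis -0.00138 (21 genes), with Scd2 at 0.03 ± 0.07 and Acsl3 at -0.01 ± 0.13. Fatty acid oxidation and PPAR targets had 0.00971 (25 genes), of which Angptl4 alone had a change of 2-fold or more. Its list neighbours Acadl and Hadha had -0.02 ± 0.05 and 0.00 ± 0.06. Glycolysis and glycogen genes had -0.00998 (28 genes), with Aldoa at -0.05 ± 0.09 and Pkm at -0.01 ± 0.07, and hypoxia genes 0.0294 (18 genes), with P4ha1 at 0.07 ± 0.14 and Egln3, a fall in the 6-library fit, at -0.17 ± 0.18. Retinoid and aryl hydrocarbon targets, which respond to foreign compounds, had -0.0277 (17 genes), with Cyp1b1 at -0.04 ± 0.23 and Rarb at 0.03 ± 0.07.

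Of the muscle lists no gene passed over all 16 libraries. Of 48 sarcomere genes, 12 were above 0 and the median was -0.0408, with Myh3, embryonic myosin, at 9505 ± 897 CPM uninduced and -0.03 ± 0.11, and Ttn, titin, at 0.02 ± 0.14. Myh7, Tnni2, Mybpc1 and Myot passed as falls in the 6-library fit, by 0.11 to 0.25 on the log2 scale. Calcium handling genes had 0.0142 (21 genes), with Atp2a2 at -0.08 ± 0.08 and Ryr1 at 0.01 ± 0.14. Neuromuscular junction genes had -0.00732 (13 genes), with Chrna1 at 0.01 ± 0.08 and Chrnd at -0.05 ± 0.11. Muscle transcription factors had -0.0142 (14 genes), with Mef2c at -0.13 ± 0.14 and Myog at 0.09 ± 0.08. Fusion and adhesion genes had 0.00217 (20 genes), with Itgb1 at -0.05 ± 0.06 and Bin1 at -0.04 ± 0.08, and progenitor factors -0.0342 (21 genes), with Sdc4 at 0.01 ± 0.30 and Hmga2 at -0.01 ± 0.25. In the msx2 line, by comparison, 24 of the 48 sarcomere genes fell and 8 rose, where 16.3% of all genes fell and 16.2% rose.

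**Figure D5:**
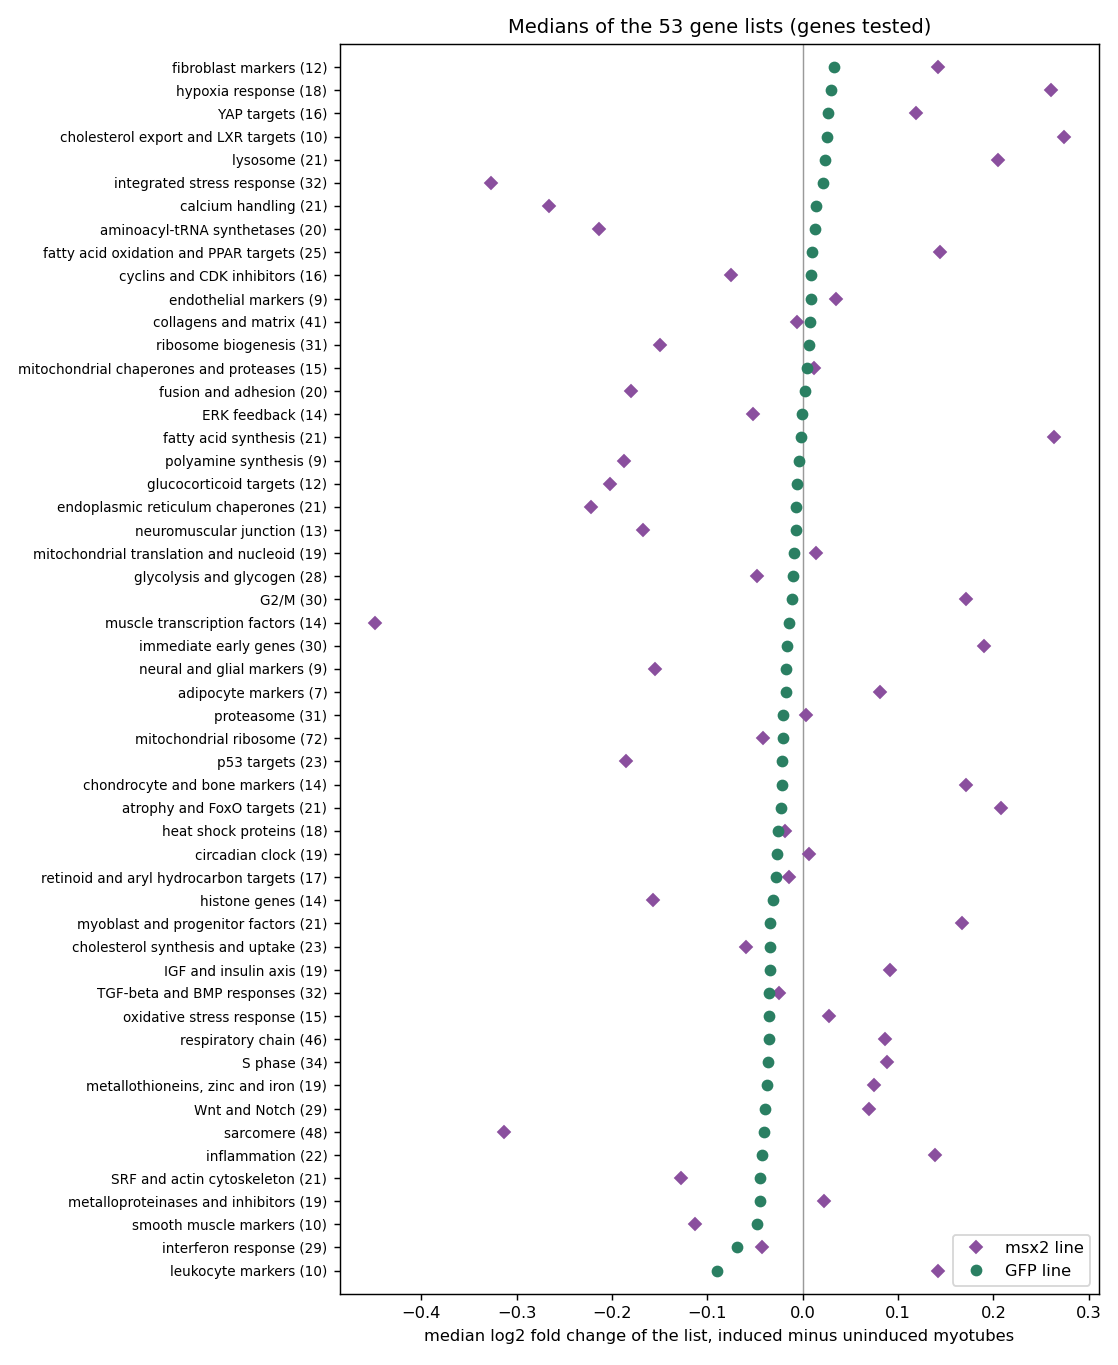
Median log2 fold change on induction of 53 gene lists (number of genes tested in brackets) in the GFP line (green circles) and the msx2 line (purple diamonds). GFP-line medians lie between -0.0903 and 0.0325, and msx2-line medians spread more widely.

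No gene of the cell cycle lists passed over all 16 libraries. The 34 S phase genes had a median of -0.0363, with Rrm1 at 0.04 ± 0.09 and Rrm2, a fall in the 6-library fit, at -0.13 ± 0.12. The 30 G2/M genes had -0.0115, with Kif11 at -0.02 ± 0.05 and Cdc25c at -0.05 ± 0.07, and their extremes were Aurkb at -0.40 and Ttk at 0.16. In pairs 1, 2 and 3, the number of the 30 genes above 0 was 2, 16 and 20. Cyclins and CDK inhibitors had 0.00883 (16 genes), with Ccnd3 at 0.01 ± 0.08. Histone genes had -0.0313 (14 genes, 2 above 0), with H3f3a at -0.03 ± 0.07 and Hist1h2bc, a fall in the 6-library fit, at -0.12 ± 0.11.

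Among matrix, growth and turnover lists, Foxo1 passed over all 16 libraries with the block, and no other gene did. In the 6-library fit Col5a1 and Col5a2 passed as rises and Tnc (-0.11), a matrix glycoprotein, as a fall. Collagens and matrix genes had a median of 0.00738 (41 genes), with Fn1 at 2241 ± 386 CPM uninduced and -0.04 ± 0.18, and Sparc at 0.02 ± 0.09. Metalloproteinases and inhibitors had -0.0450 (19 genes, 4 above 0), with Timp2 at -0.01 ± 0.08 and Adam19 at -0.08 ± 0.11. Ribosome biogenesis, which serum growth factors promote, had 0.00612 (31 genes), with Ncl at 0.00 ± 0.07 and Npm1 at -0.01 ± 0.09, and polyamine synthesis -0.0041 (9 genes), with Odc1 at 0.00 ± 0.08 and Azin1 at 0.02 ± 0.06. Proteasome genes had -0.0207 (31 genes, 7 above 0), with Psmd2 at 0.02 ± 0.06 and Psmc3 at -0.04 ± 0.07, and lysosome genes 0.0238 (21 genes, 15 above 0), with Ctsd at -0.04 ± 0.13 and Ctsl at -0.02 ± 0.14. Atrophy and FoxO genes had -0.0223 (21 genes), with Sqstm1 at -0.06 ± 0.07 and Psme4 at -0.02 ± 0.10. Circadian clock genes had -0.0270 (19 genes), with Clock at -0.03 ± 0.06 and Tef at -0.03 ± 0.10, and glucocorticoid targets -0.00573 (12 genes), with Nr3c1 at 0.04 ± 0.08 and Glul at 0.13 ± 0.10.

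Lists of other cell types, from fibroblasts (median 0.0325, 12 genes) to leukocytes (-0.0903, 10 genes), held no gene past the threshold with or without the block. Vim, of the fibroblast list, stood at 1524 ± 209 CPM uninduced and differed by -0.08 ± 0.16, and S100a4, of the same list, by 0.01 ± 0.12. Des, of the smooth muscle list (-0.0484, 10 genes), is also a muscle gene and had -0.08 ± 0.07. Tek and Vwf, of the endothelial list (0.00875, 9 genes), had 0.01 ± 0.09 and 0.00 ± 0.16, and Itgam, of the leukocyte list, -0.07 ± 0.11, with Emr1 at -0.06 ± 0.11. Runx2, of the chondrocyte and bone list (-0.0218, 14 genes), had 0.04 ± 0.10 and Sox5 -0.04 ± 0.08. Nes, of the neural and glial list (-0.0175, 9 genes), is expressed in immature muscle too and had -0.05 ± 0.08, with Ncam1 at -0.02 ± 0.09. Cebpa, of the adipocyte list (-0.0177, 7 genes), had -0.29 ± 0.21 at 3.85 CPM, and Pparg 0.09 ± 0.15.

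How precisely a small change could be bounded depended on the level. Above 100 CPM, 94.9% of 2180 genes had a 95% interval within a log2 change of 0.5 either way, and at 10 to 100 CPM 94.5% of 7516 genes did. The share was 48.3% of 4519 genes at 1 to 10 CPM and 0.0985% of 2030 genes under 1 CPM. Of the 50 genes with a fitted change of 2-fold or more, 42 were under 1 CPM. The median absolute log2 change was 0.0531 in the GFP line and 0.216 in the msx2 line.

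The place of each library between myoblasts and myotubes was read from 7210 genes that differed at least 2-fold between myoblasts (0) and uninduced myotubes (1) of the msx2 line. Uninduced GFP-line myotubes lay at 0.993, 0.994 and 0.998 and induced ones at 0.994, 0.990 and 0.999. The groups overlapped, with a mean difference of -0.000839 (two-sided exact permutation test, p = 0.9, smallest possible 0.1). In the msx2 line, uninduced myotubes had a mean of 1 by definition and induced ones 0.956 ± 0.0416 (SD, n = 3).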

How the data were processed

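RNA from 16 samples was sequenced as stranded mRNA libraries, per the labels' protocols. The authors deposited 1 table of raw read counts per gene and library. Per the submitters' processing notes, TopHat2 2.0.11, SAMtools 0.1.19, edgeR 3.6.8 and build mm9 were used, with no role given. Not given in the sources used here were the counting tool, its strand setting and its annotation. Rows that name no gene, 67 in number, held 0.0601% to 0.0878% of a library's counts and stayed out of every step.

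The counts were tested with edgeR 4.0.16 in R 4.3.3. Genes passed filterByExpr with a minimum count of 10, libraries were scaled by TMM, and all 16 libraries entered 1 robust quasi-likelihood fit with a coefficient per group. Benjamini-Hochberg adjustment ran over the 16245 genes, with a threshold of 0.05 for the adjusted p. Log2 changes are induced minus uninduced with SE. CPM are counts brought to a common library size with the TMM factors. Induced and uninduced libraries of the same replicate number deviated together from their group means, with correlations of 0.549, 0.585 and 0.639. Between other numbers the correlations were -0.202 to -0.376. Such deviations cancel out within a group, so positive same-number correlations by themselves tend to make the others negative. Because same-numbered libraries deviated together, values with the replicate number as a block are given where they change a call. The alternatives were other scalings and filters, fewer libraries, DESeq2 1.42.0, the block with and without a GC correction, and each replicate left out. The scripts were tested on simulated data with known changes, the same spread for all genes and no effect of replicate number. That test cannot show how the fits behave where replicate numbers differ, as they did here.

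Genes named were those past the threshold, the 5 largest differences between the lines each way (1 of them, without a read in induced myotubes, is not given a value), and, for a list with none past the threshold, its 2 members of highest level. Genes added by the block or by the fit of 6 libraries were chosen after their values were seen. The members and lists were chosen with earlier results of these data known. Whether replicates are separate cultures is not in the labels, and p-values then speak only of the spread between these libraries, which may be technical. Promoters are from RefSeq (GRCm38.p6) and transcripts from GENCODE, not from the authors' build.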

Additional observations from a re-analysis of the deposited data

Results flagged for a closer look

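For 7 of the 17 genes that rose in GFP-line myotubes with the replicate block, the change on induction differed between the GFP line and the msx2 line by a direct edgeR test over all 16 libraries, without the block, and for 13 with it. Without the block the log2 difference, GFP line minus msx2 line, was 1.85 for Scn3a (adjusted p 0.00072), 1.62 for Fndc1 (2.6e-06) and 0.68 for St3gal1 (0.011), 3 genes that fell in the msx2 line. It was 0.78 for Serpinb9g (adjusted p 0.036) and 0.56 for Zfp518b (0.012). The msx2 line had the larger rise for Gpr56, with a difference of -1.04 (adjusted p 0.0065), and for Fam43a, with -0.82 (0.040).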

How the results depend on the processing

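RLE and upper-quartile scaling, no filter and a filter of 5 CPM in 3 libraries each gave 5 rises and 0 falls. The replicate block gave 17 genes, all rises, and 18 with a GC correction, which lost Gpr56. With the block, 11 genes changed the same way in both lines, in place of 4, and 11 also with the GC correction. DESeq2 called 10 rises, adding Aspm, Serpinb9d, Src, Fam43a and Slc29a3, and 8 shared with the msx2 line. The 6 libraries alone gave 3 genes without the block, losing Zfp518b, Gpr56 and AI480653, and 114 with it (61 rises, 53 falls). Leaving out 1 library in turn gave 3 to 7 genes, all rises. Without uninduced replicate 1 or 2 the count was 3, without Zfp518b and AI480653, and without induced replicate 1 or 2 it was 4, without Zfp518b. With the block, leaving out pair 1 or pair 2 left 2 genes (Serpinb9g and Serpinb9f, both also called in the msx2 line), and leaving out pair 3 left 8. The block on 6 libraries and the block without a pair were added after the data were seen. Under the other 14 settings, Serpinb9g and Serpinb9f passed in all, Gpr56 in 12, AI480653 in 11 and Zfp518b in 9, and none of the 17 genes reversed in them. Genes that differed between the lines numbered 2445 to 4003. The difference in position ran from -0.00549 to 0.00148. The cause of these changes in count was not tested. Depth limited genes under 1 CPM most, where 39.9% had an interval within a 2-fold change.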
